A study of Arabidopsis thaliana with 8 samples.

Results

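Mitochondria and chloroplasts share the work of making ATP in a green plant cell. Complex I of the mitochondrial respiratory chain takes electrons from NADH, passes them through a peripheral arm of flavin and iron-sulfur proteins to ubiquinone and pumps protons across the inner membrane. In plants its assembly needs GLDH, the L-galactono-1,4-lactone dehydrogenase that also makes ascorbate (vitamin C) and hands its electrons to cytochrome c. Calcium enters the matrix through a uniporter channel, and MICU, an EF-hand protein that binds calcium, regulates that uptake in Arabidopsis. The genes described here are AT4G02580, which encodes a complex I subunit of the peripheral arm (homologous to human NDUFV2), GLDH (locus AT3G47930) and AT4G32060, which encodes MICU. They were taken as the probes whose platform annotation names exactly one of these genes, which gave 1 probe for each gene, 3 of the 3439 probes in the table and 3 of the 691 genes that single-gene probes name. No probe named one of them together with another gene.

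Total RNA of Arabidopsis thaliana was hybridised to 8 arrays, 4 for the atpd mutant and 4 for the wild type (WT). The mutant has no delta subunit of the ATP synthase, in the chloroplast enzyme the link between the catalytic head and the membrane part. Both genotypes were of ecotype Wassilevskija and were grown on MS (Murashige and Skoog) medium. The labels give no age, organ, line or allele, and nothing in them ties the replicates to separate plants. The p-values therefore cover the variation among the 8 arrays alone, and that variation may be technical. The comparison asks which mitochondrial transcripts differ when the chloroplast ATP synthase is defective. ATPD itself had no named probe, and none of the 15 leaf, root and seed marker loci had a probe of its own. Of the leaf loci, 1 was covered by a probe that names several genes, which was not counted. Neither the mutation nor the organ could therefore be checked from these loci. In bulk RNA of this kind, fewer cells of a type and less RNA per cell cannot be told apart.

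The values are intensities on an arbitrary linear scale from 0 to 100, and their scaling before deposit is unknown. The median of the values above 0 was 0.613 to 0.705 on the atpd arrays and 0.279 to 0.303 on the WT arrays. Most probes thus read higher in atpd in the values as deposited. The number of arrays limits the precision. Arrays of replicates 1 and 2 resembled each other in both genotypes, as did arrays of replicates 3 and 4, so values within these pairs are given beside the pooled ones. A fit within pairs has 2 arrays of each genotype. Its SE and p-value cover the spread between 2 like arrays alone and are no independent repeat of the pooled test. Changes are log2 atpd minus WT after quantile normalisation between arrays, tested with limma over 2921 probes (Benjamini-Hochberg, threshold 0.05). On this scale the median change of all tested probes was -0.090, against 0.996 with the values as deposited. Of the calls, 41.3% were higher in atpd after quantile normalisation and 87.6% as deposited.

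All 3 genes passed the test, AT4G32060 higher in atpd and AT4G02580 and GLDH lower. Of all tested probes 51.8% passed, 21.4% higher and 30.4% lower, so passing the test does not set these genes apart. What differed among them was the size of the change and how it held under other scalings. Of the tested probes, 98.8% had a lower change than AT4G32060, 30.0% a lower one than GLDH and 0.274% a lower one than AT4G02580. These shares are after quantile normalisation. As deposited they were 97.3% for AT4G32060, 33.3% for GLDH and 1.54% for AT4G02580.

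AT4G02580, the complex I subunit that carries an iron-sulfur cluster near the NADH site, was dimmer on every atpd array than on any WT array. Its deposited intensities were 0.158, 0.0840, 0.102 and 0.0774 in atpd replicates 1 to 4, against 0.219, 0.247, 0.348 and 0.431 in WT replicates 1 to 4. The genotypes did not overlap, and 9.04% of tested probes were lower in atpd without overlap on this scale. The mean was 0.105 ± 0.0366 in atpd and 0.311 ± 0.0971 in WT (SD, n = 4 each), a WT mean 2.96 times the atpd mean. After quantile normalisation AT4G02580 fell by 3.55 on the log2 scale (SE 0.44, 95% interval -4.54 to -2.55, limma adjusted p = 0.000220), so that WT was 11.7-fold above atpd. The size of the fall depended on the scaling. It was -2.74 when every array was centred on one median, -2.72 by cyclic loess and -1.57 as deposited (adjusted p = 0.00165 for the last), where 8.9% of tested probes were called lower. With a pseudocount of 0.1 added before quantile normalisation, which damps differences between dim values, it was -1.82 (adjusted p = 4.65e-05).

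The place of the probe within its own array does not depend on scaling that keeps the order of probes. AT4G02580 lay at the 5.80th, 1.72nd, 1.39th and 0.826th percentile of probes above 0 on atpd replicates 1 to 4, near the bottom of each array. On WT replicates 1 to 4 it lay at the 37.0th, 44.0th, 55.7th and 64.3rd percentile, in the middle of the array. With so low a place in atpd, its fold change rests on the dimmest readings of those arrays.

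**Figure D1:**
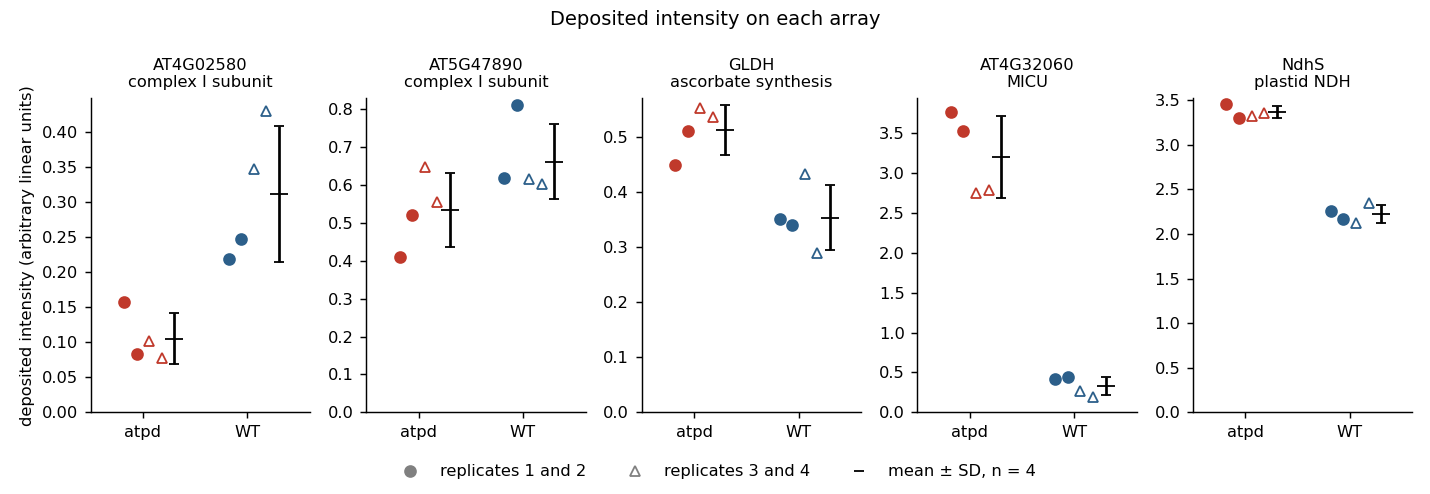
Deposited intensity (arbitrary linear units, axis from 0) of 5 probes on each array, with atpd left of WT; circles are replicates 1 and 2, triangles replicates 3 and 4, and bars the mean ± SD of 4 arrays. AT4G02580 was lower and AT4G32060, GLDH and NdhS higher on all atpd arrays than on any WT array on this scale, while the genotypes overlapped for AT5G47890. Of all tested probes, 9.04% were lower in atpd without overlap on this scale and 59.7% higher.

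In WT the normalised log2 values of AT4G02580 were lower in replicates 1 and 2 (-1.57, -1.37) than in replicates 3 and 4 (-1.03, -0.78). In atpd they were higher in replicates 1 and 2 (-3.41, -4.82) than in replicates 3 and 4 (-5.05, -5.65). Their spread was wider in atpd (SD 0.95) than in WT (SD 0.35, n = 4 each). The change of AT4G02580 was -2.64 (SE 0.53, adjusted p = 0.0203) within replicates 1 and 2 and -4.45 (SE 0.25, adjusted p = 0.00144) within replicates 3 and 4. The difference of -1.80 between these pairs (SE 0.65) did not pass the limma interaction test after adjustment (unadjusted p = 0.0323, adjusted p = 0.136).

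Of the 35 loci listed as complex I subunits, 2 had a probe of their own, AT4G02580 and 1 other gene, AT5G47890, a subunit of the B8 type (homologous to human NDUFA2) in the peripheral arm. AT5G47890 also passed the test and was lower, as were 30.4% of tested probes. The deposited intensities of AT5G47890 were 0.411, 0.521, 0.648 and 0.555 in atpd replicates 1 to 4, against 0.619, 0.811, 0.617 and 0.604 in WT replicates 1 to 4. One atpd array, replicate 3, read higher than 3 of the WT arrays, so the genotypes overlapped. Within the arrays there was no overlap: the probe lay between the 30.3rd and 45.9th percentile in atpd and between the 75.5th and 86.7th in WT. Ranks were likewise lower in atpd without overlap for 29.8% of tested probes. AT5G47890 fell by 1.34 on the log2 scale after quantile normalisation (SE 0.17, adjusted p = 0.000284). As deposited it differed by -0.32 and missed the threshold (adjusted p = 0.135), on a scale where the median probe was 0.996 higher.

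GLDH, the last enzyme of ascorbate synthesis, had no settled direction. Its deposited intensities were 0.450, 0.511, 0.553 and 0.538 in atpd replicates 1 to 4, against 0.351, 0.341, 0.433 and 0.289 in WT replicates 1 to 4. Every atpd array read higher than every WT array, as for 59.7% of tested probes. The mean was 0.513 ± 0.0452 in atpd and 0.354 ± 0.0595 in WT (SD, n = 4 each). On that scale GLDH was higher in atpd by 0.55 (SE 0.15, 95% interval 0.19 to 0.90, limma adjusted p = 0.0125), where 62.6% of tested probes were called higher.

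The same probe was lower in atpd relative to the other probes of its array. It lay at the 34.7th, 40.1st, 37.3rd and 34.7th percentile on atpd replicates 1 to 4, against the 59.3rd, 59.3rd, 64.7th and 48.8th on WT replicates 1 to 4. There was no overlap, and ranks were likewise lower in atpd without overlap for 29.8% of tested probes. Less the median shift of all tested probes, which single probes did not share equally, the deposited change of GLDH was -0.45. After quantile normalisation the change was -0.62 (SE 0.14, 95% interval -0.94 to -0.29, adjusted p = 0.00638), with -0.62 for a common median and -0.60 after cyclic loess. GLDH was -0.63 within replicates 1 and 2 (adjusted p = 0.0171) and -0.60 within replicates 3 and 4 (adjusted p = 0.0606). With array pairs as a random block, where 31.6% of tested probes were called, its adjusted p was 0.105. A fixed block that joined the like pairs of both genotypes is a different model, and there the adjusted p of GLDH was 0.00366. With the random block AT4G02580 (0.00675) and AT4G32060 (0.000584) stayed past the threshold.

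**Figure D2:**
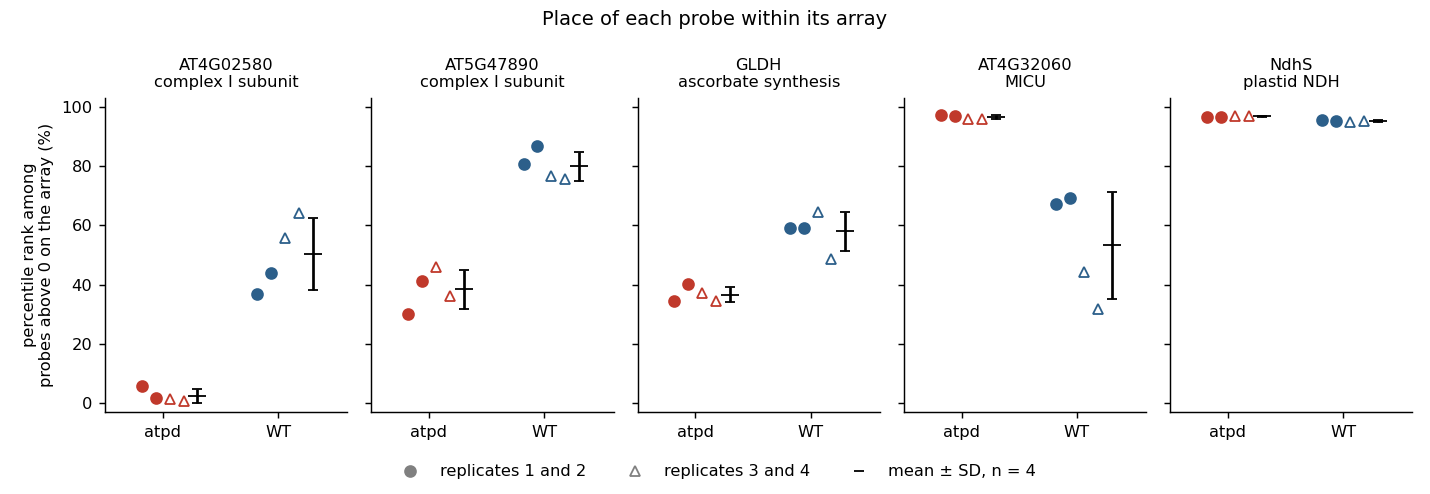
Percentile rank of 5 probes among the probes above 0 on each array (vertical axis, %), with atpd left of WT; circles are replicates 1 and 2, triangles replicates 3 and 4, and bars the mean ± SD of 4 arrays. AT4G02580, AT5G47890 and GLDH stood lower on every atpd array than on any WT array, AT4G32060 stood higher, and NdhS lay between the 94.7th and 96.8th percentile throughout. Of all tested probes, 29.8% stood lower in atpd without overlap and 21.3% higher.

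AT4G32060, the MICU regulator of mitochondrial calcium uptake, was brighter on every atpd array than on any WT array, as were 59.7% of tested probes on the deposited scale. Its deposited intensities were 3.76, 3.52, 2.75 and 2.79 in atpd replicates 1 to 4, against 0.419, 0.438, 0.264 and 0.198 in WT replicates 1 to 4. The lowest atpd value was several times the highest WT value. The mean was 3.21 ± 0.515 in atpd and 0.330 ± 0.118 in WT (SD, n = 4 each), and the ratio of the means was 9.73. After quantile normalisation AT4G32060 rose 6.81-fold, by 2.77 on the log2 scale (SE 0.27, 95% interval 2.15 to 3.39, limma adjusted p = 7.36e-05).

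This increase held under each scaling tried, at 3.34 as deposited, 2.18 with one median for all arrays and 2.77 by cyclic loess. AT4G32060 lay between the 96.0th and 97.2nd percentile on the atpd arrays. On the WT arrays it lay at the 67.4th and 69.3rd percentile in replicates 1 and 2 and at the 44.5th and 32nd in replicates 3 and 4. Replicates 1 and 2 were the brighter pair in both genotypes. The change was 2.54 (SE 0.11, adjusted p = 0.00230) within replicates 1 and 2 and 3.0 (SE 0.17, adjusted p = 0.00143) within replicates 3 and 4. The pairs differed by 0.46 (SE 0.21), which did not pass the interaction test (adjusted p = 0.218). None of the 3 genes passed that test, which called 8.63% of tested probes. At an unadjusted p under 0.05 it took in AT4G02580 alone of the 3, and 28.4% of tested probes. For GLDH the pairs differed by 0.025 (SE 0.24, adjusted p = 0.958).

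**Figure D3:**
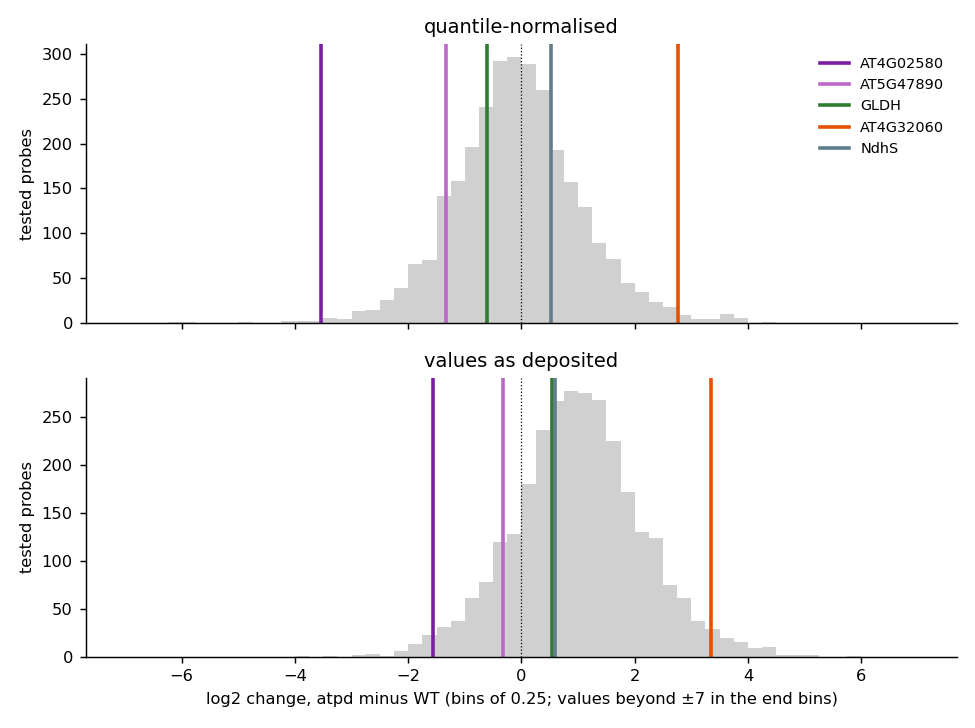
Number of tested probes (vertical axis) by log2 change, atpd minus WT (horizontal axis, bins of 0.25), after quantile normalisation (top) and as deposited (bottom), with coloured lines at 5 genes. The median was higher as deposited (0.996, against -0.090), but single probes differed by unlike amounts between the scalings. GLDH crossed 0 (-0.62 and 0.55), while AT4G32060 (2.77 and 3.34) and AT4G02580 (-3.55 and -1.57) stayed on their sides.

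Ranks within arrays were tested as well. The mean percentile rank differed by -47.8 points for AT4G02580, -21.3 for GLDH and 43.2 for AT4G32060. Each had p = 0.0286 in an exact two-sided permutation test over 70 relabellings, the smallest p that 4 against 4 arrays can give. Adjusted over all tested probes this became 0.0561, so 0% of probes passed the threshold, although 1488 had an unadjusted p under 0.05. The relabelling took all arrays as exchangeable and ignored the array pairs, so these p-values may be too small. Ranks did not overlap between genotypes for 29.8% of tested probes lower in atpd and for 21.3% higher.

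Other genes of these pathways were thinly covered. Of the 10 ascorbate synthesis loci and of the 9 mitochondrial calcium uptake loci, GLDH and AT4G32060 were the single ones with their own probe, and GLDH was also the single one of 3 complex I assembly loci. None of the 14 loci for alternative oxidases, alternative dehydrogenases and uncoupling proteins had one, nor did any of the 27 loci for complexes II to IV and cytochrome c. The 22 loci of the TCA cycle and pyruvate dehydrogenase, the 7 of mitochondrial photorespiration and the 17 of ascorbate use and recycling had none either. Probes that name several genes covered 6 loci of the TCA cycle and pyruvate dehydrogenase. They also covered 4 of ascorbate use and recycling and 3 of complexes II to IV and cytochrome c. Such probes were not counted for these lists. For the mitochondrial ATP synthase 1 of 7 loci had a probe, AT5G47030, a subunit of the catalytic part, and it was listed at 0 on all 8 arrays, which need not mean that the transcript was absent.

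The plastid NDH complex, which is related to complex I and takes electrons from ferredoxin in the thylakoid membrane, had 2 of 15 loci with a probe. NdhS, the subunit with the ferredoxin site, had deposited intensities of 3.46, 3.31, 3.33 and 3.36 in atpd replicates 1 to 4, against 2.26, 2.17, 2.13 and 2.35 in WT replicates 1 to 4. The genotypes did not overlap on this scale, with 59.7% of tested probes likewise higher. Within the arrays NdhS lay at the 96.7th to 96.8th percentile in atpd and at the 94.7th to 95.7th in WT, also without overlap. Ranks were higher in atpd without overlap for 21.3% of tested probes. The change of NdhS was 0.51 after quantile normalisation (SE 0.12, adjusted p = 0.00723). The direction turned with the scaling of intensities, since it was at -0.57 with a common median (adjusted p = 0.00709), 0.60 as deposited and 1.07 after cyclic loess. With array pairs as a random block its adjusted p was 0.0626. NdhN, another subunit, was above 0 on 1 atpd array and 1 WT array and was not tested.

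**Figure D4:**
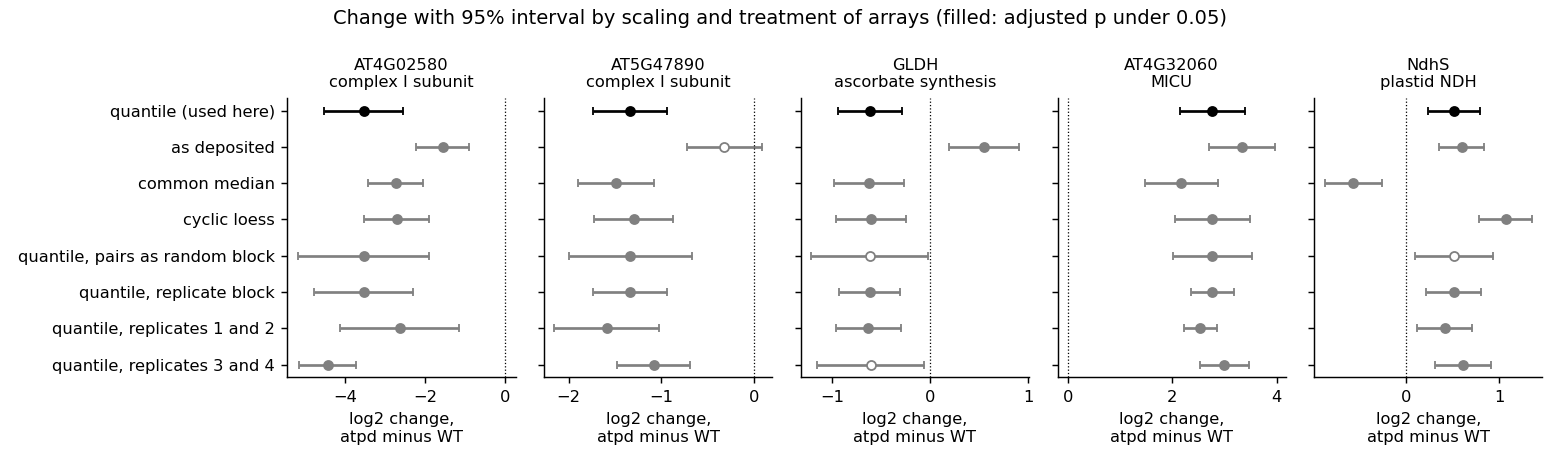
Log2 change, atpd minus WT (horizontal axis, dotted line at 0), with its 95% interval for 5 genes under 4 scalings and 4 treatments of the arrays; filled points have an adjusted p under 0.05. AT4G02580 and AT4G32060 kept their sides of 0 and their calls in all 8, GLDH crossed 0 as deposited and NdhS with a common median, AT5G47890 lost its call as deposited, and GLDH and NdhS lost theirs with pairs as a random block, as GLDH did in replicates 3 and 4.

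The single-gene probes most like each gene were found by Pearson correlation of normalised log2 values over the 8 arrays, among 570 probes with 8 values. The arrays share the genotype difference and the array pairs, so this describes likeness and tests nothing. AT4G32060 was most like AT4G13680 (r = 0.998, change 3.35), AT2G04790 (r = 0.996, change 2.04) and AT4G17440 (r = 0.996, change 0.88), and 37 of the 570 probes had r over 0.95 with it. AT4G02580 was most like AT1G34270 (r = 0.977, change -1.47), AT2G39000 (r = 0.974, change -1.99) and AT1G07850 (r = 0.973, change -1.50), with 27 probes over 0.95. GLDH was most like AT1G70180 (r = 0.976, change -0.71), AT2G38070 (r = 0.971, change -1.31) and LHB1B2 (r = 0.955, change -1.14), a chlorophyll a/b protein of the light-harvesting antenna whose family is nearly identical in sequence, so its probe cannot be assigned with certainty. For GLDH 4 probes exceeded 0.95. LHB1B2 had a mean intensity of 20.2 ± 2.79 in atpd and 62.3 ± 3.70 in WT (SD, n = 4 each), so unlike GLDH it was lower in atpd as deposited as well.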

How the data were processed

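The authors deposited linear intensities, 1 for each probe on each of 4 atpd and 4 WT arrays; how they corrected background and scaled the arrays is not given in the sources used here. Genotype and replicate number came from the sample titles. Probes were named through the platform annotation, which gives a single gene for 692 probes (690 matched to TAIR10.1 gene names), several for 870 and none for the other 1877. Values at 0 were treated as missing, log2 intensities were quantile-normalised over all positive values, and probes with at least 3 values in each genotype were fitted with limma 3.58.1 (R 4.3.3). Percentile ranks were taken among probes above 0 on an array. The fit was tested on simulated data. Array pairs as a random block used statmod 1.5.0.

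Arrays of the same number in atpd and WT deviated together from their genotype means (r = 0.374, 0.283, 0.291 and 0.285 over 2848 probes), so the replicate number was also used as a block. Arrays of different number within the same pair (replicates 1 and 2, or 3 and 4) did so at 0.184 to 0.289, so much of this is shared by the pair. Arrays of different pairs were at -0.326 to -0.237. Deviations from a genotype mean cancel, so these negative values follow from the positive ones and add no evidence. The genes named are the 3 above, list loci with their own probe, and for each of the 3 the 3 most correlated single-gene probes. The genes and the 14 lists (180 loci) were chosen with earlier results of these data known. Alternatives were other scalings, filters, a pseudocount of 0.1, blocks, array weights, a variance trend and leaving out each array. No 2 arrays held identical values.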

Additional observations from a re-analysis of the deposited data

Results flagged for a closer look

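For the genes named above, the normalised log2 values of each genotype were screened for a single array that stands apart. This was so in 1 of 28 sets of 4 arrays, where chance gives about 5% of sets. AT1G70180, one of the probes most like GLDH, read 0.253 on WT replicate 4, while the remaining WT arrays read 0.320 to 0.364. GLDH was also lowest on that array among the WT arrays. AT1G70180 was named for its correlation with GLDH over these same arrays, so this likeness adds no evidence. The values of AT4G02580, GLDH and AT4G32060 showed no such array.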

How the results depend on the processing

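AT4G02580 kept its direction and call in all 22 alternatives that tested it (changes from -4.45 to -1.57; -4.12 to -3.31 with each array left out), and the filter at the 25th percentile of intensity removed it. AT4G32060 kept both in all 23 (2.18 to 3.34; 2.48 to 2.94 with each array left out). GLDH kept both in 20 of 23 (-0.69 to -0.53 with each array left out), was 0.55 as deposited, and lost its call at -0.62 with array pairs as a random block and at -0.60 in replicates 3 and 4 alone. AT5G47890 lost its call as deposited (-0.32) and NdhS was -0.57 with a common median. With the replicate block GLDH was -0.62 (adjusted p = 0.00957) and no call of these 5 genes changed. The number of called probes was 1513. The random block for array pairs within each genotype, where fewer independent units enter, gave 924, of them 336 higher and 588 lower. The fixed block of pairs shared by both genotypes gave 1813 and the replicate block 1656. Leaving out each array gave 1301 to 1478. Rank differences with each array left out ran from -52.2 to -43.1 for AT4G02580, -24.4 to -19.1 for GLDH and 36.1 to 48.6 for AT4G32060. For GLDH the exact permutation p was 0.0571 when atpd replicate 1 or 4 was left out. The GLDH difference between array pairs was -0.0055 after cyclic loess. Causes were not tested, and dim probes such as AT4G02580 in atpd limit the precision of folds. The option without a filter was added after seeing the data.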

Other observations

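Probes with adjoining numbers were read beside the 3 genes after their values had been seen, and the sources do not say if they lie side by side on the array. AT4G32060 has probe number 2366. Probe 2365 ran from 0.924 to 1.26 in atpd and from 0.166 to 0.383 in WT (change 1.0, limma adjusted p = 0.0117), while probe 2367 ran from 0.451 to 0.578 in atpd and from 0.141 to 0.191 in WT (change 0.43, adjusted p = 0.0983). AT4G02580 has probe number 3771. The next probe listed after it, 3773, was bright, at 16.0 to 26.6 in atpd and 26.1 to 40.9 in WT (change -0.21, adjusted p = 0.555). The one before it, 3769, was at 0.660 to 0.894 in atpd and at 0 on all WT arrays. GLDH has probe number 592, and the next, 593, ran from 1.41 to 1.66 in atpd and from 0.773 to 1.37 in WT (change -0.022, adjusted p = 0.924). Probe 591 ran from 0.615 to 0.655 in atpd and from 0.313 to 0.410 in WT (change -0.34, adjusted p = 0.0515). Like GLDH it read higher in atpd as deposited and had a negative change after normalisation. The median change of all tested probes went the same way (0.996 as deposited, -0.090 after quantile normalisation), so this does not set the 2 probes apart. An effect of neighbouring probes on these values was not tested.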
